A study of Arabidopsis thaliana with 9 samples.

Results

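The Aux/IAA genes encode short-lived nuclear repressors of auxin signalling. The 10 described here are IAA1 (AT4G14560), IAA2 (AT3G23030), IAA3 (AT1G04240), IAA7 (AT3G23050), IAA12 (AT1G04550), IAA13 (AT2G33310), IAA14 (AT4G14550), IAA17 (AT1G04250), IAA19 (AT3G15540) and IAA28 (AT5G25890). They were chosen by name from the 24140 genes with a value in any of the deposited tables, by a rule that used no measured value. The choice was made with earlier results of these data known. The 10 genes belong to a family of 29 genes in Arabidopsis thaliana, all of them listed in at least 1 table. RNA was sequenced from roots of 9-day-old seedlings on 1/2 MS medium, with 3 libraries for each of 3 genotypes, titled erf13-3, 35S:ERF13:MYC and WT. ERF13 is a transcription factor of the AP2/ERF family. The first group is erf13-3 by its sample titles but an SRDX line of ERF13 by its genotype label, SRDX being an EAR-type repression motif fused to transcription factors to make chimeric repressors. The second expresses MYC-tagged ERF13 from the viral 35S promoter, which is active in most plant tissues, and the third is wild type. The headers of the authors' deposited comparisons name the first group E13SRDX and the wild type COL. The labels do not say whether replicate libraries came from separate plants or growth batches, so a p-value here is set by library-to-library spread, part of which may be technical.

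An Aux/IAA protein binds an auxin response factor (ARF) through its C-terminal domain and brings the corepressor TOPLESS (TPL) to the ARF's target genes through an N-terminal EAR motif. Auxin holds a short degron in the middle of the protein against the F-box receptors TIR1 and AFB, which marks the repressor for degradation and frees the ARF. Many Aux/IAA genes are themselves induced by auxin, which closes a feedback loop. In roots, mutations that stabilise single family members block lateral root initiation, alter gravitropism and root hairs, or change the size of the meristem.

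The stretch of DNA that encodes the degron is shown for all 10 genes, because it is the feature the encoded repressors share. Each sequence runs from 4 codons before to 5 codons after the core, and the capitals mark the 4 core codons for glycine, tryptophan, proline and proline. Coordinates and sequences are from the TAIR10.1 assembly and its RefSeq annotation, and the IAA12 and IAA13 windows span an intron that is left out of the sequence.
IAA14 (chr4:8349472-8349510, minus strand): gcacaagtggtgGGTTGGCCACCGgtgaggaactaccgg
IAA28 (chr5:9033809-9033847, plus strand): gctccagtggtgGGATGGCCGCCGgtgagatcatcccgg
IAA12 (chr1:1240783-1241093, plus strand): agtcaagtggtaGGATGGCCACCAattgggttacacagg
IAA13 (chr2:14115227-14115538, minus strand): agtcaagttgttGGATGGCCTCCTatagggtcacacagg
IAA3 (chr1:1129013-1129051, minus strand): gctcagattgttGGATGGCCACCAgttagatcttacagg
IAA19 (chr3:5264304-5264342, plus strand): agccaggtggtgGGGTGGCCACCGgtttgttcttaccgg
IAA7 (chr3:8195565-8195603, plus strand): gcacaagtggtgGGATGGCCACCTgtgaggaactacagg
IAA17 (chr1:1136935-1136973, plus strand): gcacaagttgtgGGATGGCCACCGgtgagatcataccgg
IAA1 (chr4:8361433-8361471, plus strand): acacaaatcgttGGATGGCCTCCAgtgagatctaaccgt
IAA2 (chr3:8181381-8181419, minus strand): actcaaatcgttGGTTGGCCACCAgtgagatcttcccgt
The encoded core was the same in all 10 genes, while its codons took 9 different forms and 9 of the 12 core bases were invariant. IAA3 and IAA12 had the same core codons. The next codon was one for valine in 8 genes and one for isoleucine in 2, IAA12 and IAA13.

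Each library held 12147128 to 12324144 expected counts in total, and the 10 genes had 51 to 1620 counts per library, so every one of them passed the filter on low counts. ERF13 reached 2783 ± 233 FPKM in the libraries labelled erf13-3 and 822 ± 72 FPKM in 35S:ERF13:MYC, against 1.08 ± 0.151 FPKM in WT (SD, n = 3 each), so the erf13-3 libraries are not those of a line that lacks the transcript. FPKM is the authors' value normalised for transcript length and sequencing depth. The 10 green tissue marker genes (photosynthesis genes such as RBCS1A) were detected in every group and summed to 722.3 to 832.7 FPKM in erf13-3, 108.3 to 185.3 FPKM in 35S:ERF13:MYC and 309.6 to 354.5 FPKM in WT. Against WT, 10 of 10 were called higher in erf13-3 and 9 of 10 lower in 35S:ERF13:MYC. The shares of all tested genes called higher and lower were 13.6% and 13.7% in erf13-3, and 13.8% and 17.7% in 35S:ERF13:MYC. The 10 root markers, from PYK10 to the Casparian strip gene CASP1, were also detected in every group; 5 were called higher and 1 lower in erf13-3, and 1 higher and 2 lower in 35S:ERF13:MYC. Without PYK10 they summed to 334.6 to 403.0 FPKM in erf13-3, 171.6 to 185.1 FPKM in 35S:ERF13:MYC and 231.1 to 292.5 FPKM in WT. With PYK10, the most abundant of them, the sums were 7944.2 to 8509.1 FPKM in erf13-3, 10828.4 to 12322.3 FPKM in 35S:ERF13:MYC and 11168.9 to 13233.9 FPKM in WT. The part of these marker levels in the results was not tested, and in bulk root RNA fewer cells of a type and less RNA per cell cannot be told apart. WT replicate 3 stood apart from the other WT libraries, with a chi-square per degree of freedom of 11.65 and 15.29 against them and of 2.27 to 8.63 for all other pairs within a genotype. The highest of these other values were 7.64 and 8.63, for erf13-3 replicate 3 against erf13-3 replicates 1 and 2. Replicates 1 and 2 of erf13-3 gave 2.51 against each other.

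IAA17 had the highest mean level of the 10 in every genotype, at 93.4 ± 5.64 FPKM in erf13-3, 87.7 ± 1.38 FPKM in 35S:ERF13:MYC and 85.6 ± 5.54 FPKM in WT (SD, n = 3). In erf13-3 it was followed by IAA28 and IAA7, whose libraries each overlapped with those of the gene above, and then by IAA13, IAA3, IAA2, IAA14, IAA12, IAA19 and IAA1, of which IAA2 with IAA14 and IAA12 with IAA19 overlapped. The order in 35S:ERF13:MYC was IAA17, IAA13, IAA2, IAA28, IAA7, IAA3, IAA14, IAA12, IAA1 and IAA19, with overlaps of IAA2 with IAA28, IAA14 with IAA12, and IAA1 with IAA19. In WT the order was IAA17, IAA28, IAA13, IAA7, IAA2, IAA3, IAA14, IAA12, IAA19 and IAA1. There IAA13 overlapped with IAA7, IAA7 with IAA2, and IAA19 with IAA1. IAA7 thus had rank 3 in erf13-3, rank 5 in 35S:ERF13:MYC and rank 4 in WT, and IAA2 had rank 6 in erf13-3, rank 3 in 35S:ERF13:MYC and rank 5 in WT.

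**Figure D1:**
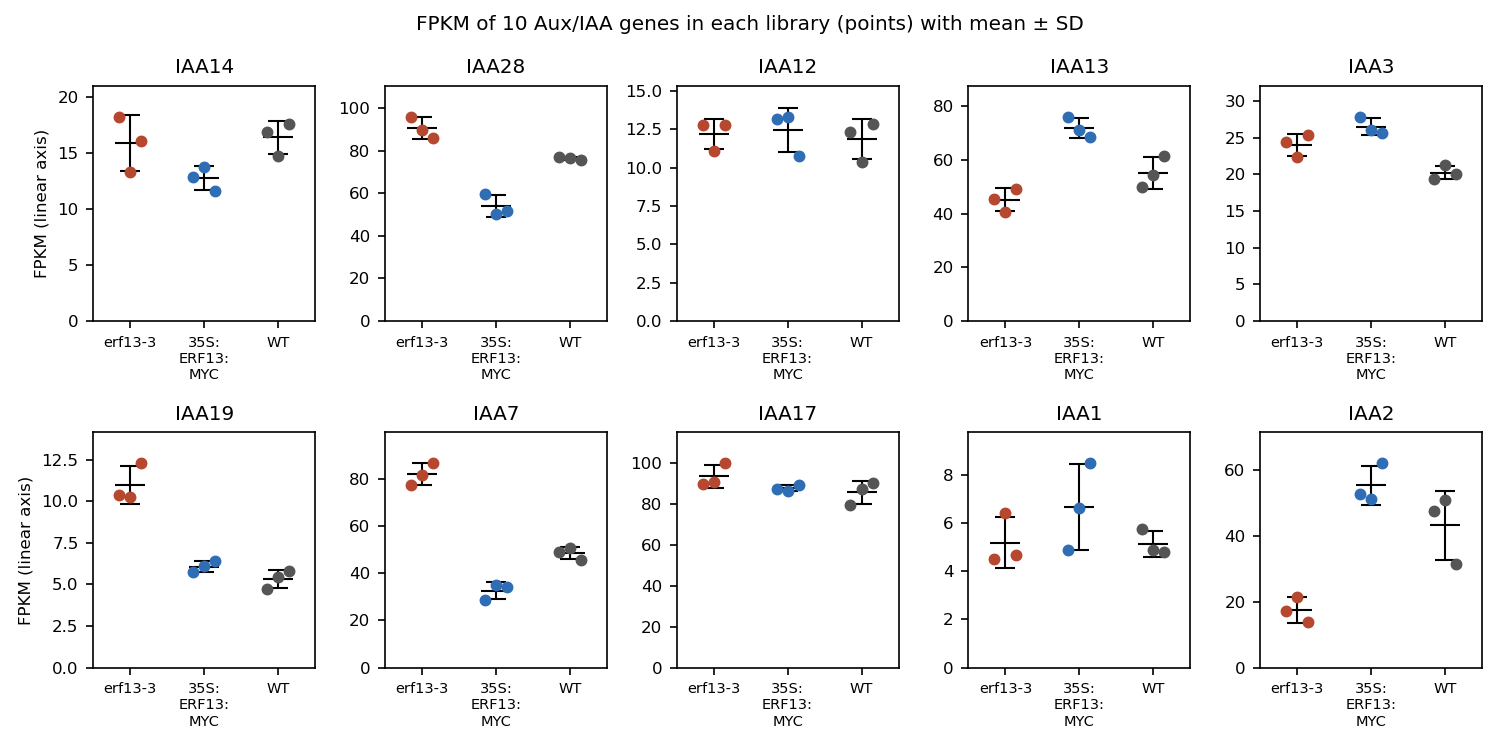
FPKM of each of the 10 genes in every library, with erf13-3 on the left, 35S:ERF13:MYC in the middle and WT on the right of each panel; points are libraries, and the bars give the mean and SD of 3. IAA2 was lowest and IAA7 and IAA19 were highest in erf13-3, IAA7 and IAA28 were lowest in 35S:ERF13:MYC, and IAA12 and IAA17 overlapped between erf13-3 and WT.

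Against WT, 4 of the 10 genes were called in each line, at an adjusted p under 0.05 in edgeR's quasi-likelihood test across all 19714 tested genes. In erf13-3, IAA7 and IAA19 rose and IAA2 and IAA13 fell; 27.3% of all genes were called in this comparison, 13.6% higher and 13.7% lower. In 35S:ERF13:MYC, IAA3 rose and IAA7, IAA14 and IAA28 fell, beside 31.5% of all genes (13.8% higher and 17.7% lower). Without 35S:ERF13:MYC replicate 2 these were 3 of the 10 genes and 19.6% of all genes, since 3903 genes were then called instead of 6209. They were 2 of the 10 without WT replicate 1, 35S:ERF13:MYC replicate 1 or 35S:ERF13:MYC replicate 3, beside 32.4%, 25.3% and 22.6% of all genes. Between the lines, IAA7, IAA19 and IAA28 were higher and IAA2 and IAA13 lower in erf13-3 than in 35S:ERF13:MYC, 5 of 10 beside 38.7% of all genes (21.1% higher and 17.6% lower). The median log2 fold change of the 10 genes was -0.06 in erf13-3 and 0.02 in 35S:ERF13:MYC against WT, and 0.01 between the lines, beside 0.02, 0.02 and -0.02 for all tested genes. The called genes thus lay in both directions, and the shares called were near those of all genes, so the counts are not read as a result about the 10 genes. Both comparisons with WT use the same WT libraries. Without WT replicate 3 the log2 fold changes against WT were -1.60 for IAA2, 0.61 for IAA7, 1.00 for IAA19 and -0.30 for IAA13 in erf13-3, and -0.69 for IAA7 and -0.60 for IAA28 in 35S:ERF13:MYC, all still called, while the calls of IAA3 and IAA14 in 35S:ERF13:MYC were lost. All fold changes below are edgeR's, with normalisation by trimmed mean of M-values (TMM), whereas the FPKM values beside them are not TMM-scaled.

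**Figure D2:**
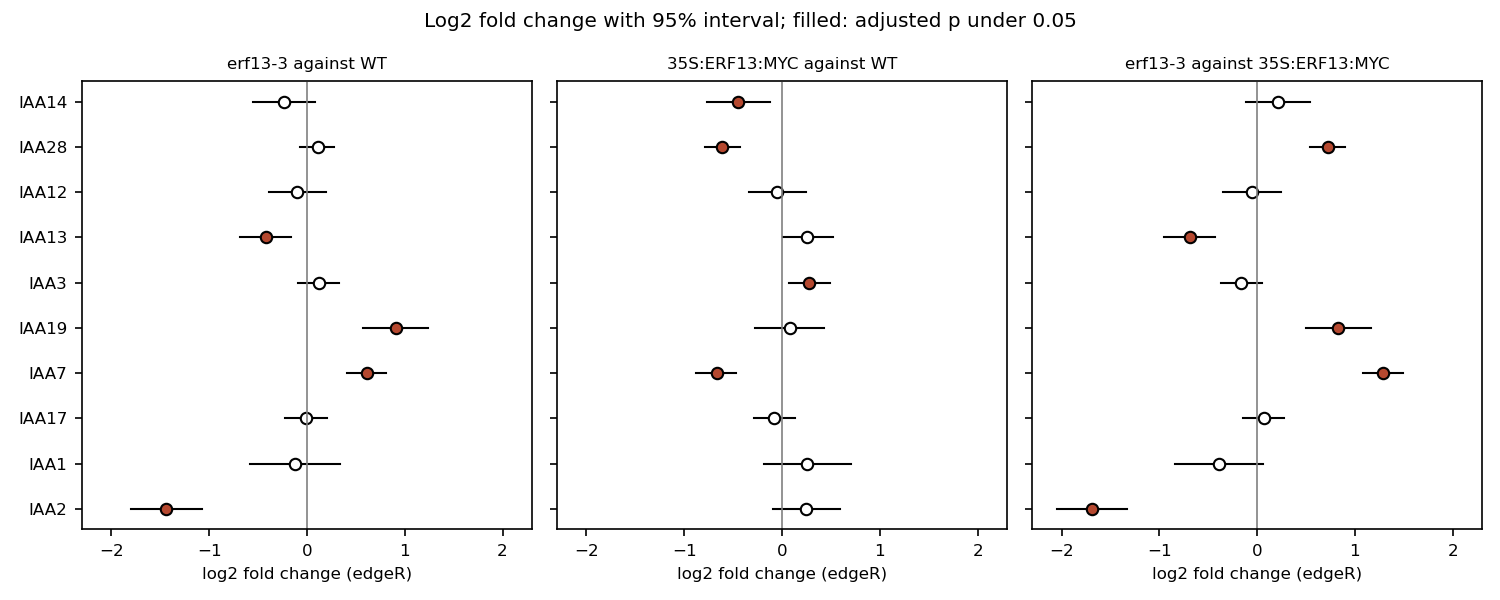
Log2 fold change of the 10 genes in edgeR's fit for erf13-3 against WT, 35S:ERF13:MYC against WT and erf13-3 against 35S:ERF13:MYC; the bars are 95% intervals and filled points are genes called at an adjusted p under 0.05. IAA7 lay above 0 in erf13-3 (0.61) and below 0 in 35S:ERF13:MYC (-0.67), and IAA2 was below 0 in erf13-3 (-1.44), with an interval across 0 in 35S:ERF13:MYC (0.25).

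IAA14 and IAA28 are repressors of lateral root formation: a stabilised IAA14 (the solitary-root mutant) prevents the founder cell divisions, and a stabilised IAA28 reduces the number of lateral roots. IAA28 was detected at 95.94, 89.63 and 85.84 FPKM in erf13-3, at 59.75, 50.40 and 51.64 FPKM in 35S:ERF13:MYC, and at 76.85, 76.57 and 75.61 FPKM in WT. Each 35S:ERF13:MYC library lay below each library of the other genotypes. The log2 fold change of 35S:ERF13:MYC against WT was -0.61 (SE 0.08, 95% interval -0.79 to -0.43, adjusted p = 0.00018), and that of erf13-3 against 35S:ERF13:MYC was 0.72 (SE 0.08, adjusted p = 2.3e-05). Against WT, erf13-3 gave 0.11 (interval -0.07 to 0.28, adjusted p = 0.37). The FPKM values of erf13-3 were all above those of WT, but TMM-scaled CPM (counts scaled to library size) overlapped, at 117 to 125 in erf13-3 against 108 to 117 in WT.

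IAA14 was detected at 18.28, 13.32 and 16.11 FPKM in erf13-3, at 12.90, 13.81 and 11.64 FPKM in 35S:ERF13:MYC, and at 16.91, 14.75 and 17.62 FPKM in WT. The 35S:ERF13:MYC libraries lay below all WT libraries, while those of erf13-3 overlapped with both. IAA14 fell in 35S:ERF13:MYC, with a log2 fold change of -0.45 (SE 0.15, interval -0.77 to -0.12, adjusted p = 0.038). This call was lost without WT replicate 1 (adjusted p = 0.057), WT replicate 3 (0.097), 35S:ERF13:MYC replicate 1 (0.08) or 35S:ERF13:MYC replicate 3 (0.14). In erf13-3 the value was -0.24 against WT (interval -0.55 to 0.08, adjusted p = 0.27).

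IAA12 (BODENLOS) and IAA13 are close paralogues that restrain ARF5 (MONOPTEROS), the factor that specifies the embryonic root. IAA13 was measured at 45.55, 40.63 and 49.10 FPKM in erf13-3, at 76.02, 71.04 and 68.51 FPKM in 35S:ERF13:MYC, and at 49.71, 54.34 and 61.53 FPKM in WT. All erf13-3 libraries were below all libraries of the other genotypes. The fold was 0.747 in erf13-3 relative to WT (log2 -0.42, SE 0.12, interval -0.68 to -0.16, adjusted p = 0.021), a call that was lost without erf13-3 replicate 1 (adjusted p = 0.069) or replicate 2 (0.087). It was 0.622 in erf13-3 relative to 35S:ERF13:MYC (log2 -0.69, SE 0.12, adjusted p = 0.00064). For 35S:ERF13:MYC against WT the log2 fold change of IAA13 was 0.26 (interval 0.01 to 0.52, adjusted p = 0.11). The FPKM values of 35S:ERF13:MYC were above those of WT but TMM-scaled counts overlapped, and the value was 0.37 without WT replicate 3, where it was called (adjusted p = 0.018). IAA12 ranged from 11.06 to 12.77 FPKM in erf13-3, from 10.79 to 13.33 FPKM in 35S:ERF13:MYC and from 10.38 to 12.88 FPKM in WT. Its log2 fold change was -0.10 in erf13-3 (interval -0.39 to 0.19) and -0.05 in 35S:ERF13:MYC (-0.34 to 0.25), with no call in any comparison.

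IAA3 (SHY2) promotes cell differentiation in the root meristem, where it is a meeting point of cytokinin and auxin. It was measured at 24.48, 22.41 and 25.34 FPKM in erf13-3, at 27.88, 26.08 and 25.63 FPKM in 35S:ERF13:MYC, and at 19.44, 21.23 and 20.05 FPKM in WT. The FPKM of both lines lay above those of WT. The log2 fold change in 35S:ERF13:MYC was 0.28 (SE 0.10, interval 0.07 to 0.49, adjusted p = 0.044), the highest adjusted p among the calls of the 10 genes. It was lost in 7 of the 9 fits that left out 1 library: any WT library (adjusted p = 0.12, 0.071 and 0.053 without replicate 1, 2 and 3), any 35S:ERF13:MYC library (0.12, 0.1 and 0.067) or erf13-3 replicate 1 (0.062). In erf13-3 it was 0.12 (interval -0.09 to 0.33, adjusted p = 0.4), and TMM-scaled CPM overlapped between erf13-3 and WT.

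IAA19 (MSG2) acts in tropic growth and lateral root formation with ARF7, and is a typical auxin-induced gene. It was measured at 10.37, 10.23 and 12.28 FPKM in erf13-3, at 5.72, 6.11 and 6.38 FPKM in 35S:ERF13:MYC, and at 4.72, 5.45 and 5.79 FPKM in WT. Its erf13-3 libraries were above all others, and those of 35S:ERF13:MYC overlapped with WT. Relative to WT the level was 1.87-fold in erf13-3 (log2 0.91, SE 0.15, interval 0.57 to 1.24, adjusted p = 0.00089), and relative to 35S:ERF13:MYC it was 1.78-fold (log2 0.83, SE 0.15, adjusted p = 0.00086). In 35S:ERF13:MYC against WT the log2 fold change was 0.08 (interval -0.28 to 0.43, adjusted p = 0.75).

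IAA7 (AXR2) and IAA17 (AXR3) restrain auxin responses in gravitropism, root elongation and root hairs. IAA7 was measured at 77.51, 81.91 and 86.73 FPKM in erf13-3, at 28.54, 35.14 and 34.29 FPKM in 35S:ERF13:MYC, and at 49.16, 50.88 and 45.80 FPKM in WT. No library of one genotype overlapped with another, with erf13-3 highest and 35S:ERF13:MYC lowest. IAA7 was the only one of the 10 genes called in both lines against WT. It rose 1.53-fold in erf13-3 (log2 0.61, SE 0.09, interval 0.41 to 0.81, adjusted p = 0.00037). It fell to 0.627 of the WT level in 35S:ERF13:MYC (log2 -0.67, SE 0.09, interval -0.88 to -0.47, adjusted p = 0.00025). Between erf13-3 and 35S:ERF13:MYC the difference was 2.44-fold (log2 1.29, SE 0.09, interval 1.08 to 1.49, adjusted p = 6.4e-07). The green marker sums had the same order of genotypes as the mean FPKM of IAA7 and IAA28. It was the reverse of the order of IAA2 and IAA13. The root marker sums without PYK10 had it too, but CASP1 was the largest part of them. CASP1 was at 218.41 to 276.83 FPKM in erf13-3, 90.03 to 97.27 FPKM in 35S:ERF13:MYC and 150.48 to 206.73 FPKM in WT. With PYK10 the root marker sums were lowest in erf13-3. IAA28 was not called in erf13-3 against WT, nor were IAA2 and IAA13 in 35S:ERF13:MYC. A link between the markers and these genes was not tested.

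IAA17 ranged from 89.70 to 99.88 FPKM in erf13-3, from 86.41 to 89.15 FPKM in 35S:ERF13:MYC and from 79.38 to 90.02 FPKM in WT. Its log2 fold change was -0.01 in erf13-3 (interval -0.22 to 0.20, adjusted p = 0.94) and -0.08 in 35S:ERF13:MYC (-0.29 to 0.13, adjusted p = 0.54), and 0.07 between the lines (-0.14 to 0.28). Both lines overlapped with WT, and IAA17 was called in no comparison.

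IAA1 (AXR5) and IAA2 are close paralogues and early auxin-induced genes, and the IAA2 promoter is in use as an auxin reporter. IAA2 was measured at 17.23, 21.57 and 13.80 FPKM in erf13-3, at 52.91, 51.19 and 62.22 FPKM in 35S:ERF13:MYC, and at 47.80, 50.90 and 31.41 FPKM in WT. Its erf13-3 libraries were all below the lowest WT library, which was replicate 3. The level in erf13-3 was 0.369 of that in WT (log2 -1.44, SE 0.17, interval -1.80 to -1.07, adjusted p = 5.5e-05), and -1.60 on the log2 scale without WT replicate 3 (adjusted p = 3.1e-06). It was 0.31 of that in 35S:ERF13:MYC (log2 -1.69, SE 0.17, interval -2.05 to -1.33, adjusted p = 7e-06), the largest difference among the 10 genes in any comparison. In 35S:ERF13:MYC against WT the log2 fold change was 0.25 (interval -0.09 to 0.59, adjusted p = 0.24), with TMM-scaled counts that overlapped, and 0.07 without WT replicate 3. IAA1, with 51 counts in its lowest library, had the fewest reads of the 10 genes. It ranged from 4.49 to 6.40 FPKM in erf13-3, from 4.90 to 8.49 FPKM in 35S:ERF13:MYC and from 4.80 to 5.74 FPKM in WT. Its intervals were wider, at -0.58 to 0.34 in erf13-3 and -0.18 to 0.71 in 35S:ERF13:MYC against WT, and it was not called in any comparison. Without 35S:ERF13:MYC replicate 1 it was called lower in erf13-3 than in 35S:ERF13:MYC (log2 -0.56, adjusted p = 0.047), against -0.39 with all libraries (adjusted p = 0.16).

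The authors' deposited table for erf13-3 against WT lists 1656 genes and holds IAA2, with a log2 ratio of -1.31, and IAA19, with 1.04. The authors' deposited table for 35S:ERF13:MYC lists 1305 genes and 0 of the 10. No gene in the authors' deposited tables has a log2 ratio nearer to 0 than 1, which IAA7, IAA13, IAA14, IAA3 and IAA28 did not reach in either comparison of the fit described here.

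The summed level of the 10 genes was 396.3, 387.7 and 406.5 FPKM in erf13-3, 369.3, 360.1 and 368.7 FPKM in 35S:ERF13:MYC, and 362.1, 376.7 and 365.5 FPKM in WT. The erf13-3 sums lay above the others on this scale. As TMM-scaled CPM they were 476, 468 and 524 in erf13-3, 456, 441 and 445 in 35S:ERF13:MYC and 461, 495 and 518 in WT, so that erf13-3 overlapped with WT. The make-up of the sum differed between genotypes. IAA7 made up 19.6% to 21.3% of it in erf13-3, 7.73% to 9.76% in 35S:ERF13:MYC and 12.5% to 13.6% in WT. IAA2 made up 3.39% to 5.56% in erf13-3, 14.2% to 16.9% in 35S:ERF13:MYC and 8.59% to 13.5% in WT. The share of IAA13 was 10.5% to 12.1% in erf13-3, 18.6% to 20.6% in 35S:ERF13:MYC and 13.7% to 16.8% in WT. IAA28 took 21.1% to 24.2% in erf13-3, 14% to 16.2% in 35S:ERF13:MYC and 20.3% to 21.2% in WT, while IAA17 stayed between 21.9% and 24.6% in every library. Of the summed FPKM of all 29 Aux/IAA genes, the 10 made up 40.1% to 41.2% in erf13-3, 37.3% to 37.8% in 35S:ERF13:MYC and 40.1% to 41% in WT.

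**Figure D3:**
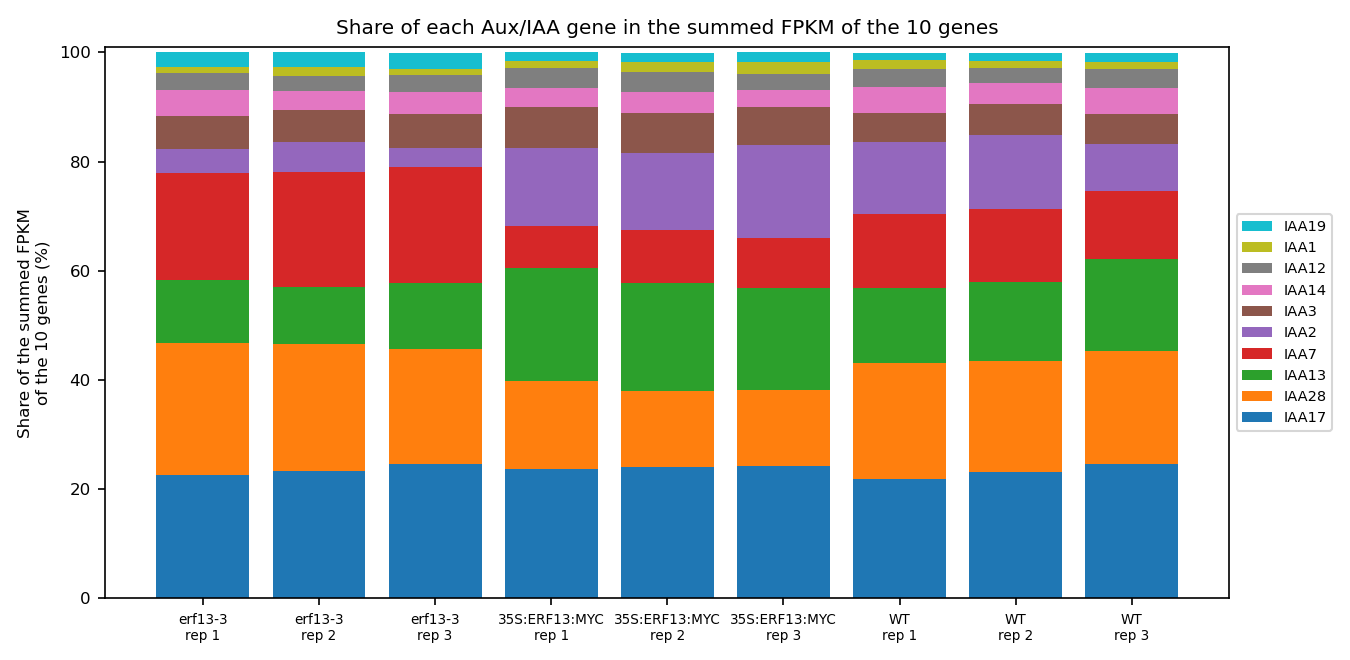
Share of each of the 10 genes in their summed FPKM (percent), as a stacked bar per library, with the erf13-3 libraries on the left, 35S:ERF13:MYC in the middle and WT on the right. The IAA7 segment was 19.6% to 21.3% in erf13-3, 7.73% to 9.76% in 35S:ERF13:MYC and 12.5% to 13.6% in WT, and the IAA17 segment was 21.9% to 24.6% throughout.

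Of the genes, 6 lie in 3 divergent neighbour pairs with 0 protein-coding genes between them in TAIR10.1. IAA2 (chromosome 3, 8180646 to 8182095, minus strand) and IAA7 (8194606 to 8197161, plus strand) are 12510 bases apart. In erf13-3 these neighbours moved in opposite directions, IAA2 lower and IAA7 higher. IAA14 (chromosome 4, 8347822 to 8350263, minus strand) and IAA1 (8360996 to 8362033, plus strand) are 10732 bases apart, and IAA3 (chromosome 1, 1128149 to 1129689, minus strand) and IAA17 (1136078 to 1138663, plus strand) 6388 bases. In each of these 2 pairs 1 gene (IAA14 or IAA3) was called in 35S:ERF13:MYC and the other was not, where 31.5% of all genes were called. The calls of IAA14 and IAA3 were each lost in several fits that left out 1 library, and the difference between neighbours was not tested. The other genes are IAA12 (chromosome 1, 1240294 to 1242157, plus strand), IAA13 (chromosome 2, 14113025 to 14116089, minus strand), IAA19 (chromosome 3, 5264001 to 5265695, plus strand) and IAA28 (chromosome 5, 9033204 to 9035140, plus strand). They have 2 to 5 exons in their first isoform and a coding length of 507 bases (IAA1) to 741 bases (IAA13).

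The coding sequences were most alike in IAA7 and IAA14 (85.4% identity over 687 aligned bases), IAA1 and IAA2 (85.1% over 496) and IAA12 and IAA13 (81.5% over 498). None of these pairs lies side by side. Each holds 1 gene called in erf13-3 against WT and 1 that was not, where 27.3% of all genes were called. In 35S:ERF13:MYC the log2 fold changes were -0.67 for IAA7 and -0.45 for IAA14, both called lower. There IAA1 (0.26), IAA2 (0.25), IAA12 (-0.05) and IAA13 (0.26) were not called, beside 31.5% of all genes called. In erf13-3 the log2 fold changes were 0.61 for IAA7 and -0.24 for IAA14, -1.44 for IAA2 and -0.12 for IAA1, and -0.42 for IAA13 and -0.10 for IAA12; the difference between paralogues was not tested. The longest run of identical bases was 41 in IAA7 and IAA14, so some reads may match both. Of the 90 values of the 10 genes, 5 were not whole within 0.005, and in 35S:ERF13:MYC replicate 2 the fractional counts of 567.62 for IAA7 and 147.38 for IAA14 add up to 715.

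The 250 bases before the annotated start of the gene are shown for IAA19, IAA2, IAA7 and IAA28, the genes with the largest called changes against WT. Capitals mark TGTCTC, a motif bound by ARF proteins, found on either strand; TGTCGG, a further ARF-bound form, and GCCGCC, the core of the GCC box bound by many ERF proteins, were searched in the same way and were not in these windows.
IAA19 (chr3:5263751-5264000, plus strand): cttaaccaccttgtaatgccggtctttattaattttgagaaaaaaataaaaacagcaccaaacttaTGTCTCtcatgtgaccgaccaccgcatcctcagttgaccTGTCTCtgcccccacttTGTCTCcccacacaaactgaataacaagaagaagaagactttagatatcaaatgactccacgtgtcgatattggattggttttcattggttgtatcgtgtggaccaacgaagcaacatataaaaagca
IAA2 (chr3:8182096-8182345, minus strand): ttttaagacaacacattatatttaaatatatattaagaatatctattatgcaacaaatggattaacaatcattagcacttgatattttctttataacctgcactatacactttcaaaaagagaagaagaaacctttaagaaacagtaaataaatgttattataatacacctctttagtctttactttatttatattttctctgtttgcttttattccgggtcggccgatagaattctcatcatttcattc
IAA7 (chr3:8194356-8194605, plus strand): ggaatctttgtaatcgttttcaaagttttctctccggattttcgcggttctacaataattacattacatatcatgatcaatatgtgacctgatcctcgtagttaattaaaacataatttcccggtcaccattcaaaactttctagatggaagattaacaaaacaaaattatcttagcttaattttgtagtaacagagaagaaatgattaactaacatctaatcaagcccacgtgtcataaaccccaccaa
IAA28 (chr5:9032954-9033203, plus strand): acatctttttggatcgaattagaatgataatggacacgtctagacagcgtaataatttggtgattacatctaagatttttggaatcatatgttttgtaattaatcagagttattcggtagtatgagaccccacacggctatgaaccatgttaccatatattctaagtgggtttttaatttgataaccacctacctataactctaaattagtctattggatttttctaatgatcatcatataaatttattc
The IAA19 window held 3 copies of TGTCTC, at positions -184, -145 and -128 from the gene's start, and the windows of IAA2, IAA7 and IAA28 held none of the motifs. The annotated start of IAA2 is that of its longer isoform, 242 bases upstream of the start of the first isoform. Among the 10 genes TGTCTC was in the windows of 2 (IAA1 and IAA19), beside 10.9% of 27443 promoters of this length, and TGTCGG in those of 3 (IAA1, IAA12 and IAA13), beside 4.16%. Within 1000 bases TGTCTC was in 5 of the 10 and in 39.6% of all promoters, and TGTCGG in 4 of the 10 and in 14.6%. GCCGCC was in 0 of the 10 promoters at either length, beside 1.87% of all promoters at 250 bases and 8.44% at 1000 bases. No match overlapped with another, and a match here describes the sequence and not a bound site.

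Among the 19 other Aux/IAA genes, 14 were tested and 5 (IAA5, IAA6, IAA15, IAA20 and IAA34) were too low. In erf13-3, 3 rose and 2 fell, and in 35S:ERF13:MYC, 3 rose and 1 fell, counts near the shares of all genes called (27.3% in erf13-3 and 31.5% in 35S:ERF13:MYC). IAA18 had the same directions as IAA7, at 10.9 ± 0.545 FPKM in erf13-3, 3.99 ± 0.6 FPKM in 35S:ERF13:MYC and 6.57 ± 0.344 FPKM in WT (SD, n = 3). Its log2 fold change was 0.60 in erf13-3 (adjusted p = 0.0036) and -0.83 in 35S:ERF13:MYC (adjusted p = 0.00077). IAA11 fell in erf13-3 (-1.03, adjusted p = 0.0023), and IAA10 (0.82) and IAA26 (0.42) rose in 35S:ERF13:MYC.

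The other components of the pathway changed as follows, over lists chosen with earlier results of these data known. Of all tested genes, 13.6% were called higher and 13.7% lower in erf13-3, and 13.8% higher and 17.7% lower in 35S:ERF13:MYC. Of the 6 TIR1 and AFB receptors, 1 rose in erf13-3 and 0 in 35S:ERF13:MYC, and 0 fell in either line. The riser was AFB1, at 46.1 ± 4.31 FPKM in erf13-3 against 27.1 ± 4.94 FPKM in WT (log2 0.63, adjusted p = 0.00055). Of the 5 corepressor genes, 3 rose in erf13-3, TPR3 (0.61), TPL (0.37) and TPR1 (0.33), and 1 in 35S:ERF13:MYC, TPR3 (0.39).

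Of the 5 activating ARF genes, whose products the Aux/IAA proteins repress, 0 rose and 2 fell in erf13-3, beside 13.6% and 13.7% of all genes. These were ARF7, a driver of lateral root initiation (log2 -0.61, adjusted p = 4.9e-05), and ARF5 (-0.64, adjusted p = 0.00076). ARF6 and ARF8 were the 2 that rose in 35S:ERF13:MYC, where 0 fell (0.47 each), beside 13.8% of all genes higher and 17.7% lower. ARF7 was at 15.3 ± 0.809 FPKM in erf13-3, 25 ± 0.821 FPKM in 35S:ERF13:MYC and 21.2 ± 1.7 FPKM in WT. Between the lines 4 of the 5 were lower in erf13-3 and 0 higher, beside 17.6% and 21.1% of all genes. Of the 10 other ARF genes, 3 rose and 1 fell in erf13-3, with ARF18 (1.18), ARF9 (0.51) and ARF2 (-0.50) among them. Among these 10, 1 rose and 3 fell in 35S:ERF13:MYC, with ARF10 (0.40), ARF1 (-0.53) and ARF2 (-0.41) among them.

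Of the 13 auxin-induced genes outside the family, 11 were tested, of which 6 rose and 0 fell in erf13-3 and 5 rose and 2 fell in 35S:ERF13:MYC. Over all tested genes these shares were 13.6% and 13.7% in erf13-3, and 13.8% and 17.7% in 35S:ERF13:MYC. GH3.3, which encodes an enzyme that conjugates auxin to amino acids, rose in both lines, at 15.1 ± 1.17 FPKM in erf13-3, 13.1 ± 0.87 FPKM in 35S:ERF13:MYC and 1.81 ± 0.363 FPKM in WT. LBD29, a lateral root regulator downstream of ARF7 and ARF19, rose in erf13-3 (log2 1.40, adjusted p = 0.00014), as did GH3.1 (1.08). GH3.2 rose (1.22) and GH3.6 fell (-0.91) in 35S:ERF13:MYC. In erf13-3, GH3.6 was called higher (0.99) and GH3.2 was not called (-0.42). The counts of GH3.2 and GH3.3 were not whole within 0.005 in 8 of 9 libraries each, so their reads may be shared with close copies. Of the 7 tested auxin synthesis genes (8 listed), 4 rose and 2 fell in erf13-3, with YUC5 (1.24), YUC8 (1.14) and YUC3 (-1.16) among them. TAA1 rose (0.80) and 1 gene of the list fell in 35S:ERF13:MYC. The list medians ran from 0.08 to 0.48 in erf13-3 and from -0.33 to 0.39 in 35S:ERF13:MYC against WT, beside 0.02 for all tested genes in both.

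**Figure D4:**
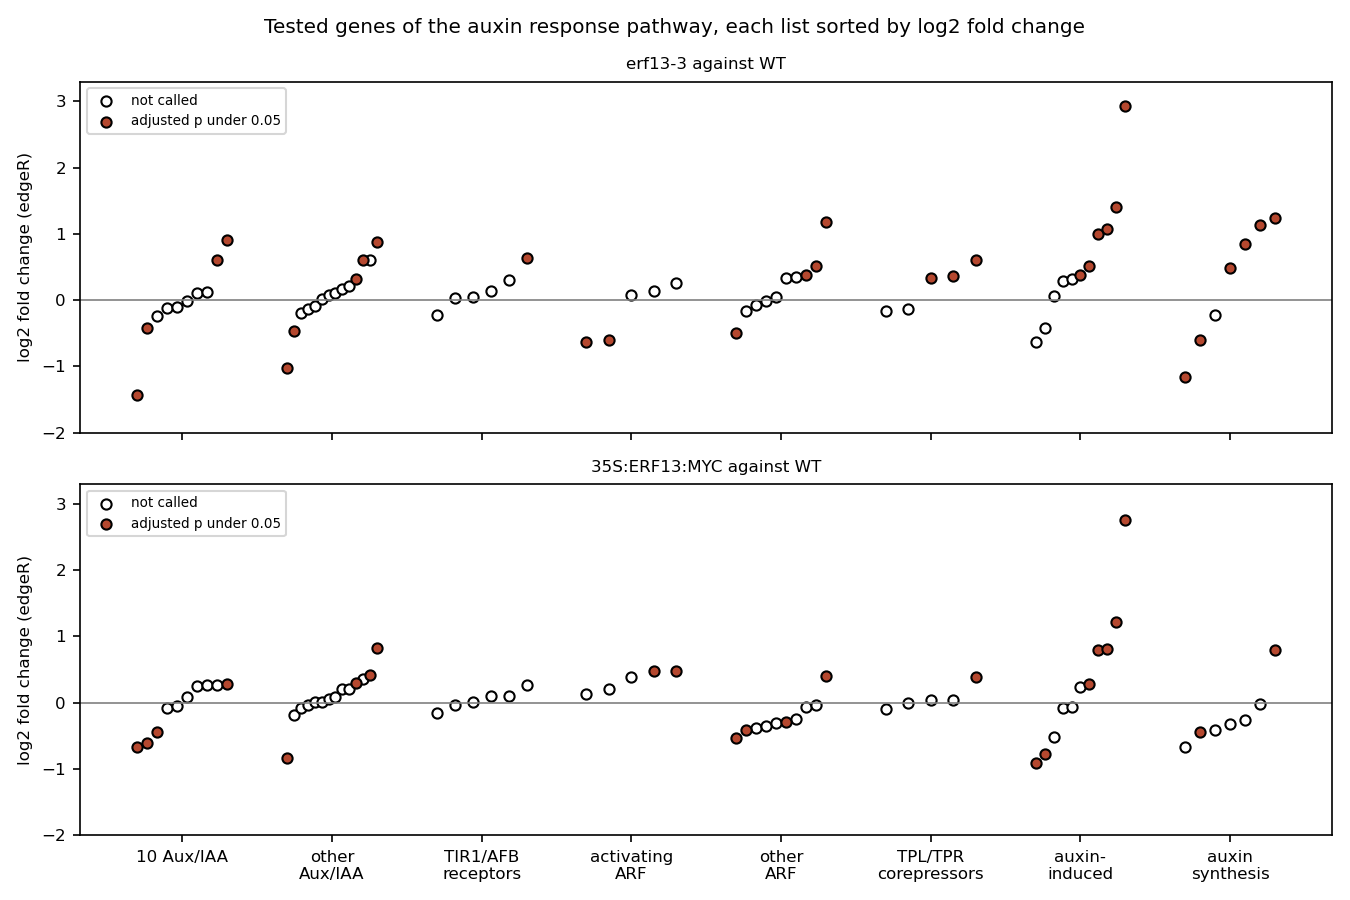
Log2 fold change against WT of the tested genes of each auxin pathway list, with erf13-3 in the upper and 35S:ERF13:MYC in the lower panel; points are genes, and filled points are called at an adjusted p under 0.05. Of the 5 activating ARF genes, 2 were called below 0 in erf13-3 (ARF5 and ARF7), beside 13.7% of all tested genes. In 35S:ERF13:MYC 2 different ones were called above 0 (ARF6 and ARF8), beside 13.8% of all tested genes. Called genes of the 10 Aux/IAA repressors lay on both sides of 0.

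IAA2 was the only one of the 10 genes with a called log2 fold change of at least 1 against WT. The genes most like it were sought among 8182 tested genes with a symbol and a mean of at least 1 FPKM, by the root mean square difference of log2 CPM from the WT mean over the 9 libraries. The closest were PIA1 (0.231), GAD2 (0.237) and BRG3 (0.239). They were picked for likeness to IAA2 in these same libraries, so group means in the order of IAA2 follow from the choice. GAD2, a glutamate decarboxylase gene, averaged 34.6 FPKM in erf13-3, 101 FPKM in 35S:ERF13:MYC and 73.6 FPKM in WT. PIA1, a gene for a type 2C protein phosphatase, averaged 29.8 FPKM in erf13-3, 68.1 FPKM in 35S:ERF13:MYC and 58.2 FPKM in WT. BRG3 averaged 8.18 FPKM in erf13-3, 31.9 FPKM in 35S:ERF13:MYC and 21.1 FPKM in WT.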

How the data were processed

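Per the file headers, each of the 9 libraries has an expected count per gene, which the authors estimated and which can be fractional, beside the authors' FPKM. Each line also has a deposited table against WT that holds a log2 ratio of mean FPKM and a score named Probability. Aligner, counting tool and strand setting: not given in the sources used here. Genes missing from a library's table were set to 0. Coordinates in the authors' tables fell inside the TAIR10.1 gene of the same ID for 2547 of 2547 genes compared, and sequences were read from that assembly. There were 0 columns of samples outside the series.

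Expected counts were rounded and tested with edgeR 4.0.16 (R 4.3.3): filterByExpr with a minimum count of 10, which kept 19714 of 24140 genes, TMM factors, and a quasi-likelihood fit of all 9 libraries with 1 mean for each genotype and no covariates (6 residual degrees of freedom). P-values were adjusted over all tested genes (Benjamini-Hochberg) and a gene was called under 0.05. SE was derived from each gene's F statistic and log2 fold change, and the 95% intervals use edgeR's moderated degrees of freedom. The fit was tested on simulated data. Alternatives used DESeq2 1.42.0, limma 3.58.1 on log2 FPKM with a pseudocount of 1 or 0.1, a block for the replicate number and fits that left out each library. The 10 genes, the pathway lists and the marker lists were chosen with earlier results of these data known. Named pathway genes are at most 3 called genes per list and comparison with WT, those with the largest log2 fold change. Same-numbered erf13-3 and WT libraries deviated together from their group means (r = 0.18, 0.22 and 0.44 for replicates 1, 2 and 3 over the tested genes). However, WT replicate 1 went further with erf13-3 replicate 2 (r = 0.27) than with erf13-3 replicate 1. Same-numbered libraries of 35S:ERF13:MYC and either other group gave r = -0.26 to 0.15. Its replicate 1 gave 0.31 with WT replicate 3. Deviations are taken from the mean of the same few libraries, so these values of r are not independent. The labels name no shared batch, and whether the number pairs any libraries is not settled by these values.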

Additional observations from a re-analysis of the deposited data

How the results depend on the processing

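Over 17 other settings, 481 values of the 10 genes kept their side of the threshold, 11 passed it, 18 lost it and 0 reversed a call. The calls of IAA2, IAA7 and IAA19 in erf13-3 against WT, of IAA7 and IAA28 in 35S:ERF13:MYC against WT, and all 5 calls between the lines held in all 17. The count of the 10 genes called higher in 35S:ERF13:MYC was 1 in the main fit (IAA3). It became 0 with no filter on low counts, with DESeq2 and with the replicate block. When single libraries were left out it was 0 to 1. Without WT replicate 3 the 1 gene was IAA13 (adjusted p = 0.018 in edgeR) and not IAA3 (0.053). In the 3 limma fits on log2 FPKM this count was 2 (IAA3 and IAA13), and that of genes called higher in erf13-3 was 4 (IAA3, IAA7, IAA19 and IAA28). Values for all 3 are given in this order: mean FPKM of at least 1 with pseudocount 0.1, no filter with 0.1, no filter with 1. In either direction, 6, 6 and 6 of the 10 were called in erf13-3, beside 34.1%, 27.2% and 27.7% of all genes. In 35S:ERF13:MYC these were 5, 4 and 4, beside 35.6%, 26.8% and 27%. FPKM are not TMM-scaled: in these fits the median log2 fold change of all genes was 0.15, 0.14 and 0.09 in erf13-3 and 0.13, 0.12 and 0.07 in 35S:ERF13:MYC, against 0.02 in edgeR. Of the calls, 70.8%, 70.5% and 71.2% were on the higher side in erf13-3, against 50% in edgeR, and 59.9%, 58.2% and 58.8% in 35S:ERF13:MYC, against 43.7%. A limma fit on TMM-scaled FPKM with a pseudocount of 1, chosen after seeing the data, changed the scaling alone. In it 50.9% of calls were higher in erf13-3 and 42.6% in 35S:ERF13:MYC, and the median was 0.01 in both. The 10 genes then had 2 higher and 2 lower calls in erf13-3, beside 22% of all genes called. In 35S:ERF13:MYC they had 1 higher and 3 lower, beside 23.8% of all genes. The IAA14 call in 35S:ERF13:MYC was lost in the limma fits without a filter (adjusted p = 0.062 and 0.058). Genes called higher in erf13-3 numbered 4496, 4636 and 4752 in the 3 limma fits on FPKM without TMM scaling, in the order given above, against 2689. When single libraries were left out, genes called higher in 35S:ERF13:MYC numbered 1441 to 3004, against 2713, with 1441, 1764 and 1793 without 35S:ERF13:MYC replicate 2, WT replicate 2 and 35S:ERF13:MYC replicate 3. The members called lower in erf13-3 then numbered 1 to 2. With the replicate block over all 9 libraries the IAA3 call was lost (adjusted p = 0.054) and no other call of the 10 genes changed, with 2894 and 3629 genes called higher and lower in 35S:ERF13:MYC and 2712 and 2782 in erf13-3. A replicate block over the erf13-3 and WT libraries only, also chosen after seeing the data, changed none of the 10 genes' calls in that comparison and called 3625 genes higher and 3575 lower, against 2689 and 2692. IAA1 had the widest intervals of the 10 genes.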
